A study of Mus musculus with 4 samples.

Results

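The imprinted Dlk1-Dio3 miRNA cluster was covered by 59 of the 566 mouse miRNA probes on a nanoString nCounter panel, an assay in which fluorescent barcodes bound to individual RNA molecules are imaged and tallied without amplification. Members were chosen by name alone, as every probe, in either arm, for the miRNAs of 48 hairpins. Of these 59 probes, 8 exceeded background, set as the highest probe for viral miRNAs in the same sample, in at least 1 sample. By this limit 3, miR-376a, miR-154 and miR-543, exceeded it in all 4 samples. None of the 5 members high enough to test differed between oncogenic and normal epidermal cells past the threshold.

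The Dlk1-Dio3 region is controlled by genomic imprinting, so its genes are read from only the maternal or the paternal chromosome. Its miRNAs come from long noncoding transcripts of the maternal chromosome, among them Meg3, Rian and Mirg, while the protein-coding genes Dlk1, Rtl1 and Dio3 are active on the paternal one. Members antisense to Rtl1, such as miR-136 and miR-127, lie opposite the Rtl1 transcript and can direct its cleavage, and the long run of hairpins towards Mirg includes miR-379 at its start and miR-410 at its end. The cluster is known for high activity in the embryo, the placenta and the brain, and for low levels in most adult tissues.

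RNA was taken from epidermal cells of adult mice in 4 samples. The 2 oncogenic samples came from mice with the alleles R26stoprtTA/+ and Col-tetO-YAPS127A/+ together with K14-Cre, in which Cre, driven in basal keratinocytes, allows doxycycline to induce YAP S127A, a form of the coactivator YAP that escapes inhibition by Hippo signalling. The 2 normal samples came from R26stoprtTA/+ Col-tetO-YAPS127A/+ mice without Cre, which also drank doxycycline, so both groups shared the drug (1 mg/ml for 8 days) and both transgenic alleles. Cells were collected by scraping back skin after trypsin, so other cells of the skin could be present, and the sample titles call the oncogenic ones tumours. The labels name 6 control animals and do not tie samples to animals, so the error behind every p-value is the variation among these 4 samples, part of which may be technical.

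The barcode counts recovered for miRNAs ranged from 53709 in oncogenic replicate 2 to 230284 in oncogenic replicate 1, and 1 count was worth 1.76 normalized counts in oncogenic replicate 2 and 0.861 to 0.878 in the other samples. The keratinocyte miRNAs miR-203 and miR-205 summed to 35808 and 31307 normalized counts in the oncogenic samples and 33512 and 50742 in the normal samples and were among the most abundant probes. Replicates of each group differed by more than counting noise over all miRNAs. The YAP transgene is not analysed here.

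All 48 hairpins were found by name in a RefSeq gene table of the mouse assembly GRCm38.p6, on the plus strand of chromosome 12 between Dlk1 and Dio3. They ran over 180.1 kb from miR-770 to miR-410. Of the 59 probe names, 37 give no arm, and 22 cover both arms of 11 hairpins. The sequences below are of the 5 tested members, because these carry the comparison, with their seeds (bases 2 to 8, which pair with target transcripts) in capitals. Both arms are shown where the probe name gives none, and miR-376b-3p, miR-495-3p and miR-496b are added for comparison with miR-376a-3p, miR-543-3p and miR-496a-3p. They are written 5′ to 3′ and are those of RefSeq for GRCm38.p6.
miR-136-5p: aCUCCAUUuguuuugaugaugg
miR-136-3p: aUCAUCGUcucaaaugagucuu
miR-376a-5p: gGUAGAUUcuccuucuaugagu
miR-376a-3p: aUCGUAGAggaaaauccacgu
miR-376b-3p: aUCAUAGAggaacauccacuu
miR-543-5p: aAGUUGCCcgcguguuuuucg
miR-543-3p: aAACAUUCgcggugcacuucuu
miR-495-3p: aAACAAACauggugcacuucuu
miR-154-5p: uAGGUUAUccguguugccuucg
miR-154-3p: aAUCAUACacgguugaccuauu
miR-496a-5p: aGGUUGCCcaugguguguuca
miR-496a-3p: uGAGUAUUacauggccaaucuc
miR-496b: cAACAUGGccaauuccuuucau

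No 2 of the 5 tested members shared a seed. Among the 91 mature arms of the 48 hairpins there were 88 distinct seeds, and 3 of them were shared by 2 arms each. Some arms are nonetheless alike over much of their length. Of the pairs shown above, miR-376a-3p matched miR-376b-3p at 18 of 21 positions with 1 mismatch in the seed. Likewise miR-543-3p matched miR-495-3p at 18 of 22 positions with 2 mismatches in the seed. Probes for such relatives may share signal, which was not tested. For miR-496 the gene table holds Mir496a in the cluster and Mir496b on chromosome 19, and the probe name does not say which it detects. Their mature forms miR-496a-3p and miR-496b share a run of 11 bases, but matched at only 7 of 22 positions when aligned from the first base, with 6 mismatches in the seed.

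Background was read from the 33 probes for viral miRNAs, which have no target in mouse RNA. The highest of them reached 18.3 and 22.9 normalized counts in oncogenic replicates 1 and 2 and 17.6 and 27.6 in normal replicates 1 and 2, and a member was called above background where it exceeded the highest viral probe of the same sample. By this rule 7 and 5 members were above background in the oncogenic samples and 5 and 3 in the normal samples. Members above it in both samples of a group numbered 4 in oncogenic cells (6.78% of 59, against 20.3% of all 566 miRNA probes) and 3 in normal cells (5.08%, against 21.4% of all probes). At least 1 sample was above background for 8 members, against 31.1% of all probes. With the mean plus 2 SD of the viral probes as the limit, 5 members were above it in both oncogenic samples (8.475%, against 23.1% of all miRNA probes). In both normal samples 4 were above it (6.78%, against 25.4%), and miR-136 was among the members in both groups. That limit was also passed by 1 viral probe in each group. With the highest of the 6 negative control probes as the limit, 11 members were above background in both oncogenic samples (18.6%, against 34.98% of all miRNA probes) and 16 in both normal samples (27.1%, against 41.9%), but that limit was also passed by 5 viral probes in oncogenic and 8 in normal cells.

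**Figure D1:**
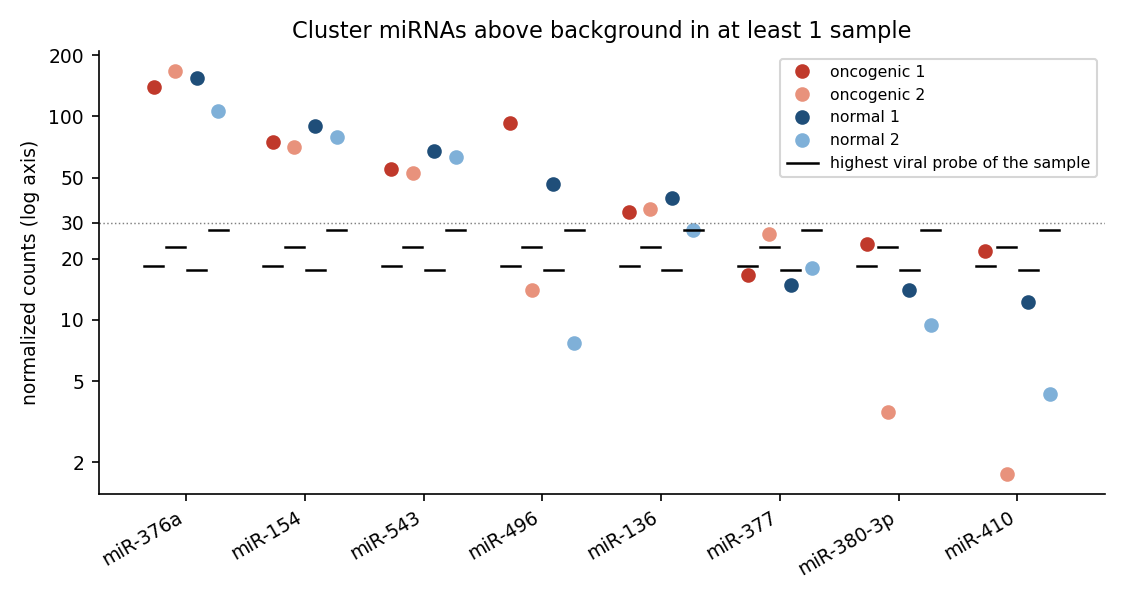
Normalized counts (log axis) of the 8 cluster miRNAs above background in at least 1 sample, 1 point per sample, oncogenic left of normal. Short bars mark the highest viral probe of each sample and the dotted line the value of 30 used to choose miRNAs for the test; miR-376a, miR-154 and miR-543 lie above both in all 4 samples, and miR-496 spans 7.75 to 92.6.

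miR-136 is the tested member that lies antisense to Rtl1 (chr12:109595327-109595388). It had 34.1 and 35.2 normalized counts in the oncogenic samples, against 39.5 and 27.6 in the normal samples. The oncogenic values lay between the normal ones, and normal replicate 2 equalled its highest viral probe. These values rest on 39 and 20 barcodes in the oncogenic samples and on 45 and 32 in the normal samples. On the log2(value + 1) scale, the oncogenic minus normal difference was 0.07 (SE 0.39, 95% interval -0.98 to 1.11, limma adjusted p = 0.925 over all tested miRNAs). The other 5 probes of the group listed here as antisense to Rtl1 were above background in no sample. They were for miR-127, miR-431, miR-433 and both arms of miR-434. By RefSeq span, 14 probes of the cluster lie within Rtl1, and 13 of them were above background in no sample.

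miR-376a belongs to a small family of hairpins in tandem and is known in mouse and human brain for editing of its transcript within the seed. Its hairpin (chr12:109723781-109723848) gave the highest level of the cluster in every sample, 139.8 and 167 normalized counts in the oncogenic samples, against 155 and 106 in the normal samples. The groups overlapped, and normal replicate 2 was lowest. The group means were 153.5 ± 19.5 in oncogenic and 130.3 ± 34.4 in normal cells (SD, n = 2 each), a log2 difference of 0.25 (SE 0.34, 95% interval -0.66 to 1.17, limma adjusted p = 0.766). miR-376a alone made up 17.2% and 22.7% of the summed signal of all 59 probes in the oncogenic samples and 21.4% and 16.3% in the normal samples.

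The hairpins beside miR-376a did not share its level. miR-376b, which ends 241 bases before it and resembles it in sequence, ranged from 5.28 to 7.86 normalized counts over the 4 samples, and miR-300, 464 bases after it, from 6.11 to 8.81. Neither was above background in any sample. miR-376c, another member of the family, ranged from 0.86 to 4.37.

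miR-543 and miR-154 showed the smallest spread of the 8. miR-543, reported together with miR-496 and miR-369-3p to repress N-cadherin in the embryonic mouse cortex, had 55.0 and 52.8 normalized counts in the oncogenic samples, against 67.6 and 62.9 in the normal samples (hairpin chr12:109717258-109717333). miR-154 (chr12:109738433-109738498), whose hairpin lies within Mirg, had 75.1 and 70.5 in the oncogenic samples, against 89.6 and 79.2 in the normal samples. For both miRNAs the oncogenic samples lay below the normal samples without overlap, as was the case for 38.7% of all tested miRNAs.

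Neither difference passed the test. For miR-543 it was -0.27 (log2, SE 0.33, 95% interval -1.16 to 0.62, limma adjusted p = 0.756), with group means of 53.9 ± 1.55 in oncogenic and 65.3 ± 3.37 in normal cells (SD, n = 2 each). For miR-154 it was -0.21 (SE 0.32, 95% interval -1.07 to 0.65, limma adjusted p = 0.797), with 72.8 ± 3.30 in oncogenic and 84.4 ± 7.33 in normal cells. Both lay close to the median of -0.19 over all tested miRNAs, and both turned positive with centring on sample medians and with scaling by the 100 most abundant miRNAs.

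The counting intervals of single samples overlapped between the groups for these miRNAs. In oncogenic replicate 2 the exact 95% Poisson interval of miR-154 was 50.3 to 95.9 normalized counts from 40 barcodes, and that of miR-543 was 35.65 to 75.4 from 30 barcodes. In normal replicate 1 they were 73.1 to 108.8 for miR-154 and 53.4 to 84.5 for miR-543. Such intervals cover counting error only.

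miR-496, also of the N-cadherin group, differed widely between samples of 1 group. It had 92.6 and 14.1 normalized counts in the oncogenic samples, against 46.5 and 7.75 in the normal samples. Replicate 1 of each group was high and replicate 2 lay below its highest viral probe, so the groups overlapped and the highest value was 11.9 times the lowest. The counts behind these values were 106 and 8 barcodes in the oncogenic and 53 and 9 in the normal samples. The Poisson intervals of the 2 oncogenic samples, 75.8 to 112 and 6.08 to 27.8 normalized counts, did not overlap, nor did those of the 2 normal samples, 34.9 to 60.9 and 3.54 to 14.7.

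The log2 difference of miR-496 was 0.88 (SE 1.26, 95% interval -2.48 to 4.25, limma adjusted p = 0.775). It was -0.43 without oncogenic replicate 1 and -0.34 without normal replicate 2. If the probe detects Mir496a, its hairpin (chr12:109739119-109739197) begins 620 bases after that of miR-154, in the same host gene. The ratio of miR-496 to miR-154 ranged over 12.6 times, with 1.23 and 0.20 in the oncogenic samples, against 0.519 and 0.0978 in the normal samples. The ratio of miR-154 to miR-543 stayed within 1.08 times.

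The other members above background were so in 1 sample each. miR-377, reported to raise fibronectin in mesangial cells of the kidney, reached 26.4 in oncogenic replicate 2, on 15 barcodes, beside 16.6 in oncogenic replicate 1 and 14.9 and 18.1 in the normal samples. miR-380-3p had 23.6 and 3.52 normalized counts in the oncogenic samples, against 14.1 and 9.47 in the normal samples, and the other arm of its hairpin, miR-380-5p, had 14.0 and 14.1, against 3.51 and 8.61. miR-410, the last hairpin of the cluster, had 21.8 and 1.76 in the oncogenic samples, against 12.3 and 4.31 in the normal samples. The values of miR-377, miR-380-3p and miR-410 overlapped between oncogenic and normal cells, and none reached 30. Those of miR-380-5p did not overlap, but it was above background in no sample.

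miR-410 and miR-380-3p thus stood higher in replicate 1 than in replicate 2 of both groups, as miR-496 did. In all, 3 members were at least 3 times higher in replicate 1 than in replicate 2 in both groups, miR-496, miR-379 and miR-411, of which miR-379 and miR-411 were named after their values were seen and lay below background in all samples. The opposite, replicate 2 at least 3 times higher in both groups, held for 1 member. Of the 566 miRNA probes 11 showed the first pattern, among them miR-29b, miR-33, miR-144 and miR-720, and 3 the opposite one, while 0 of 33 viral probes showed either. Both replicate 1 samples exceeded both replicate 2 samples for 14 members and the reverse held for 11, against 102 and 125 of all 566 miRNA probes. The labels do not say whether a replicate number marks anything the samples share.

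**Figure D2:**
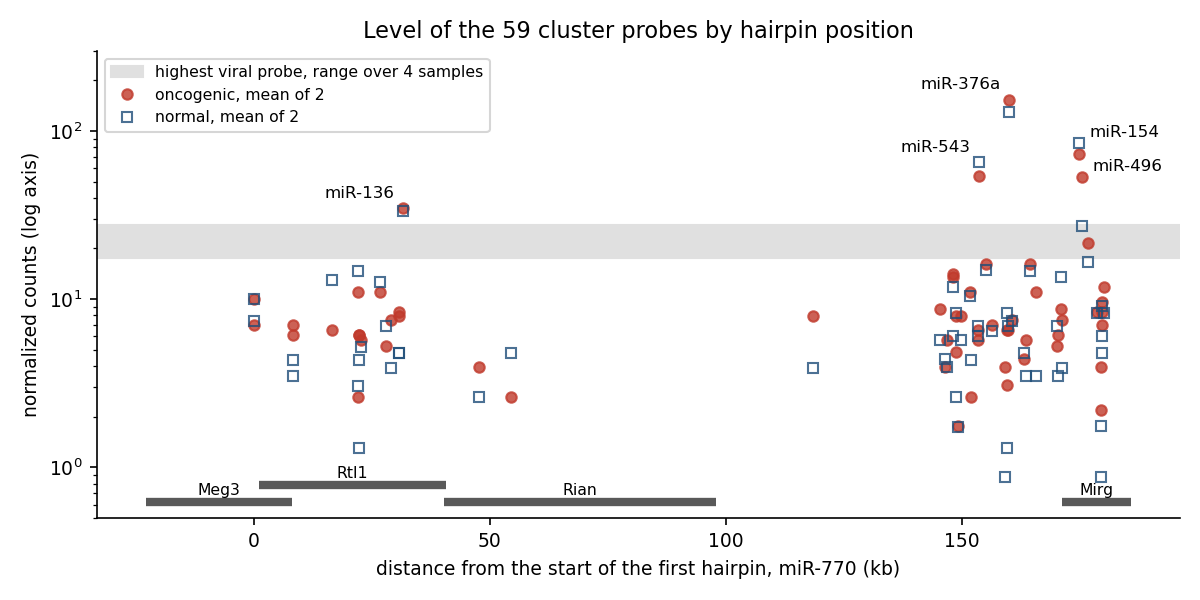
Mean normalized counts (log axis) of the 59 cluster probes in oncogenic (circles, n = 2) and normal cells (squares, n = 2) against the distance of their hairpins from the first, miR-770 (kb). The grey band is the range of the highest viral probe over samples, 17.6 to 27.6, and dark bars are the spans of host genes in the gene table. The members above the band, miR-136, miR-543, miR-376a and miR-154, with miR-496 in oncogenic cells, stand among hairpins most of which lie within or below it. miR-496 is placed at Mir496a, next to miR-154, though its probe name does not exclude Mir496b on chromosome 19.

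By position, with miR-496 placed at Mir496a, miRNAs above background were not neighbours of each other, apart from miR-154, miR-496 and miR-377. The 10 probes of hairpins from miR-770 to miR-665, at the Meg3 end of the cluster, were above background in no sample. miR-136 stands 727 bases after the hairpin of miR-434, both of whose arms stayed between 2.64 and 8.81. miR-543 stands 74 bases after that of miR-666, whose arms stayed between 1.76 and 9.61, and 1420 bases before miR-495, which ranged from 12.9 to 17.6. Of the 10 probes whose hairpins lie within Mirg, counting miR-496 there, 4 were above background in at least 1 sample.

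The 54 members below the limit for testing had medians near those of viral probes. Being low is what left them untested, so this nearness follows in part from the choice. Their median was 6.99 and 7.05 normalized counts in the oncogenic samples and 5.27 and 6.46 in the normal samples, while the viral probes had medians of 6.11 and 7.05 in the oncogenic and 5.27 and 6.03 in the normal samples. The 388 other untested miRNA probes had medians of 6.11 and 7.05 in the oncogenic and 6.15 and 6.03 in the normal samples. The mean per probe was 7.68 and 7.34 for these members in oncogenic and 5.99 and 6.79 in normal cells, against 7.01 and 8.17 for viral probes in oncogenic and 6.12 and 7.59 in normal cells. Of the 54, 51 exceeded the highest viral probe in no sample. They include well known miRNAs of the region: miR-127 (4.37 and 10.6 in oncogenic, 3.51 and 4.31 in normal cells) and miR-134, known for limiting dendritic spine size in neurons (5.24 and 7.05, against 1.76 and 5.17). A level under the highest viral probe, about 18 to 28 normalized counts, was not called above background, which does not show that these miRNAs are absent. By the negative control limit, which some viral probes also passed, miR-337-3p, miR-377, miR-494, miR-495 and miR-539 were above background in both samples of each group.

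**Figure D3:**
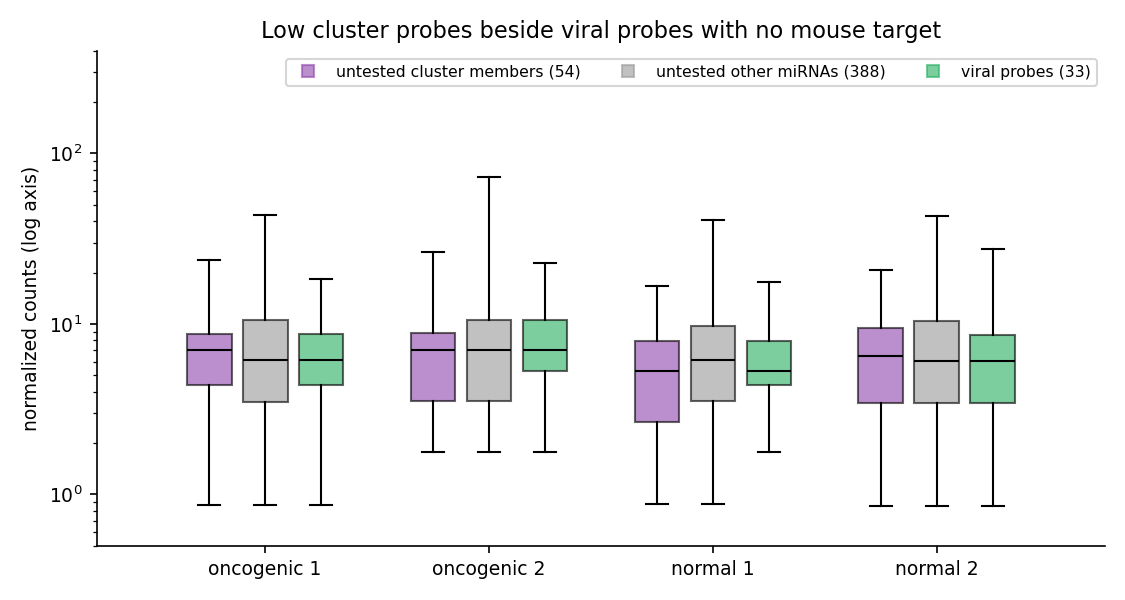
Normalized counts (log axis) in each sample, oncogenic left of normal, of the 54 untested cluster probes, the 388 other untested miRNA probes and the 33 viral probes; boxes give quartiles and medians and whiskers the lowest and highest probe. The medians of the cluster probes, 5.27 to 7.05, lie in the range of the viral medians, 5.27 to 7.05.

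Counts of probes whose groups did not overlap were also like those of viral probes. Both oncogenic samples were above both normal samples for 12 members (20.3% of 59, against 15.4% of all 566 miRNA probes and 21.2% of viral probes) and below them for 5 (8.47%, against 17.7% of all miRNA probes and 9.09% of viral probes). All 12 of the higher members were untested ones, at 0.86 to 14.85 normalized counts in all samples, and none was above background. They include miR-127, miR-134, both arms of miR-434 and both arms of miR-673, and they are given as counts, not as changes. Of the 5 lower ones, 2 were miR-154 and miR-543.

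Between oncogenic and normal cells, no tested member passed the test of a difference. The test covered every miRNA that reached 30 in 2 or more samples (21.9% of the 566 probes, and 8.47% of the cluster), and 5 (4.03% of those tested) passed an adjusted p under 0.05, all lower in oncogenic cells. Centring each sample on its median turned this into 5 lower and 3 higher. Of the 5 tested members 0 passed, and 0 had an unadjusted p under 0.05 in limma, against 24.2% of all tested miRNAs. By edgeR's quasi-likelihood test and by DESeq2 on the recovered counts 0 of the 5 passed as well, where these tools called 3.23% and 11.3% of all tested miRNAs. DESeq2 gave no adjusted p for miR-136, miR-496 and miR-543.

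The absolute log2 difference had a median of 0.25 over the 5 members and of 0.53 over all tested miRNAs. The signed median was 0.07 over the 5 members (3 positive, 2 negative, -0.27 to 0.88) and -0.19 over all tested miRNAs (51 positive, 73 negative). miR-136 and miR-496 passed the limit of 30 in only some samples. These medians are a description, and no test of the members as a list was made.

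**Figure D4:**
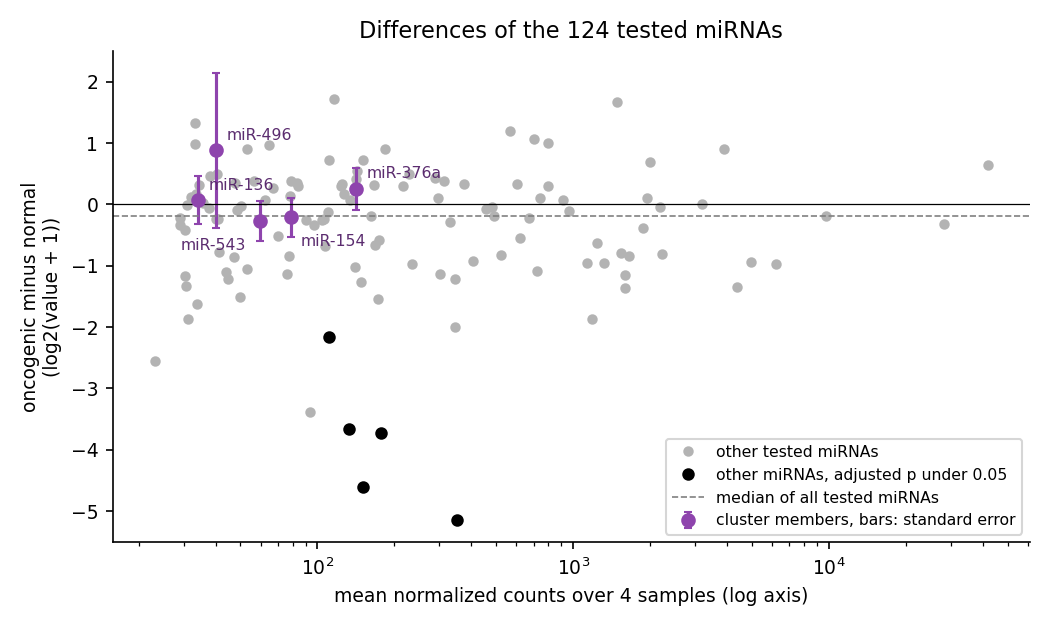
Difference in log2(value + 1), oncogenic minus normal, of all tested miRNAs against their mean normalized counts (log axis). The 5 cluster members (purple, bars: standard error) lie between -0.27 and 0.88, and the 5 miRNAs past the threshold (black), none of them a member, all lie below -2.

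The directions of the 5 members depended on how samples were scaled, with the median of all tested miRNAs moving between -0.60 and 0.34. Under the 7 other scalings miR-496 stayed positive, at 0.50 to 1.38, and miR-376a was positive except with the 4 housekeeping mRNA probes (-0.15). miR-136 turned negative with these mRNA probes (-0.33), with mRNA probes other than Gapdh (-0.07) and with scaling to positive controls (-0.18). After subtracting the overall median, the differences on the deposited scale were 1.07 for miR-496, 0.45 for miR-376a, 0.26 for miR-136, -0.02 for miR-154 and -0.08 for miR-543. None of the 5 passed the threshold under any scaling, with adjusted p of 0.3 or more.

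**Figure D5:**
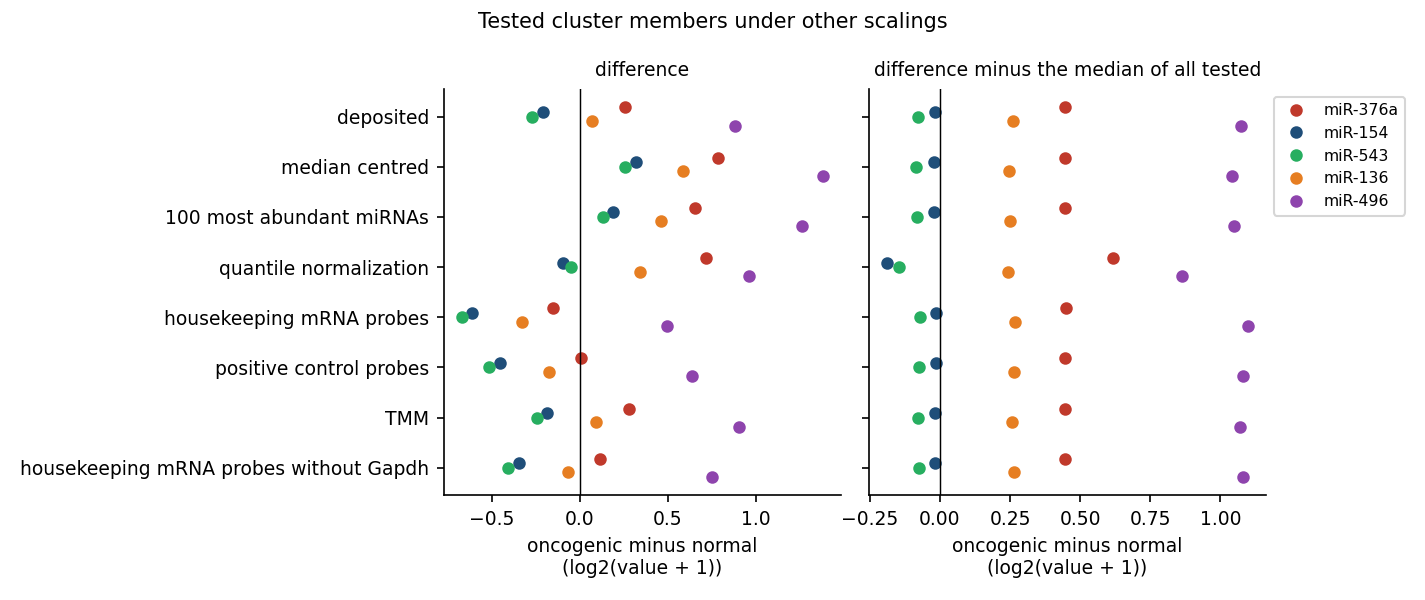
Log2 difference, oncogenic minus normal, of the 5 tested cluster members on the deposited scale and under 7 other scalings (left), and the same after subtracting the median of all tested miRNAs under that scaling (right). On the left miR-154 and miR-543 change sign with centring and with the 100 most abundant miRNAs. On the right the members keep nearly the same values, except under quantile normalization. Scaling each sample by a constant shifts all log2 differences almost equally, and subtracting the median removes that shift. The sameness thus follows from the calculation and is not a test of robustness. Under quantile normalization miR-154 (-0.19) lies below miR-543 (-0.15).

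Ratios within a sample do not depend on a scaling by 1 factor per sample. For the 3 members above background in all samples, the ratio of miR-376a to miR-154 was 1.86 and 2.38 in the oncogenic samples, against 1.73 and 1.34 in the normal samples. The ratio of miR-154 to miR-543 was 1.37 and 1.33 in the oncogenic samples, against 1.32 and 1.26 in the normal samples. Neither ratio overlapped between the groups, with both higher in the oncogenic samples. For miR-154 to miR-543 the gap was only that between 1.33 in oncogenic replicate 2 and 1.32 in normal replicate 1. The former rests on 40 and 30 barcodes, so counting error is large beside this gap. Both ratios hold miR-154, and neither was set against other pairs of miRNAs or tested.

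Summed over all 59 probes, the cluster gave 811 and 736 normalized counts in the oncogenic samples, against 721 and 650.3 in the normal samples. The means were 774 ± 53.2 in oncogenic and 686 ± 50.2 in normal cells (SD, n = 2 each), a log2 ratio of 0.17, without overlap between the groups. The 54 untested members, whose medians lie near those of viral probes, made up 415 and 396 of these counts in the oncogenic and 323.3 and 367 in the normal samples, and the 5 tested members 397 and 339.9 in the oncogenic and 398 and 283 in the normal samples. The sum of the tested members overlapped between the groups, and that of the untested ones did not. The mean per viral probe, a measure of background, was 7.01 and 8.17 in the oncogenic and 6.12 and 7.59 in the normal samples. The log2 ratio of the summed level turned negative with mRNA scaling (-0.22) and with positive controls (-0.08), and it was not tested. As a share of all miRNA signal the 59 probes made up 0.403% and 0.778% in oncogenic and 0.434% and 0.484% in normal samples, with the highest share in the shallowest sample. That total includes miR-720, the most abundant tested probe. It had 92371 and 13707 normalized counts in the oncogenic samples, against 51572 and 10046 in the normal samples, so the share also moves with miR-720.

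Other imprinted loci gave no miRNA above background. The 8 probes for miR-675 (from H19), miR-483 (Igf2), miR-335 (Mest), miR-296 and miR-298 (Gnas region) had a highest value of 21.1, for miR-483 in oncogenic replicate 2. Most probes on the lists of muscle, neural and stromal markers were above background in no sample. The 7 muscle probes summed to 55.9 and 65.2 in oncogenic and 63.3 and 73.2 in normal samples, with none above background. The 6 neural probes summed to 92.6 and 70.5 in oncogenic and 62.4 and 47.4 in normal samples, with only miR-138 above background, and the 6 stromal probes to 41.1 and 37.0 in oncogenic and 123 and 93.0 in normal samples, with miR-199a-3p and miR-199a-5p above background. Markers of other cells were not all low. The 3 red blood cell probes summed to 46.3 and 47.6 in oncogenic and 942 and 814 in normal samples. The 2 endothelial probes summed to 11.4 and 17.6 in oncogenic and 223 and 400 in normal samples. Of the 6 white blood cell probes, 5 were above background in both oncogenic and 5 in both normal samples. No probe of these lists was at 0 in all samples, but a value above 0 is not a sign of signal. The lowest untested cluster members were also above 0, at 0.87 and 1.76 normalized counts in oncogenic and 0.88 and 0.86 in normal samples. Each of these values is worth 1 count. The part of the listed markers in the levels of the cluster was not tested. In bulk samples, fewer cells of a type and less miRNA per cell cannot be told apart.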

How the data were processed

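The deposited table holds 618 probes and 1 signal column per sample. Each signal is a normalized nCounter value made by the authors, whose normalization method is not stated by the labels or headers. In the deposited signal, 603 probes (miRNA, viral and mRNA) turned out to be whole barcode counts times a single factor per sample (100.0% of the values whole within 0.1 count), while control probes are unscaled. Members and lists were chosen with earlier results of these data known. Groups were compared by limma (version 3.58.1, under R 4.3.3; two-sided, variance trend on) using log2(value + 1) of each miRNA that reached 30 in 2 or more samples, with Benjamini-Hochberg adjustment over all of them and a threshold of 0.05. This scale understates changes of low miRNAs. edgeR (version 4.0.16) and DESeq2 (version 1.42.0) were run on recovered counts. Every tested member and every member above the highest viral probe in 1 sample was named. Alternatives were other scalings, pseudocounts, filters, no trend, negative control subtraction, left-out samples and a replicate block; mRNA scaling without Gapdh and all alternatives for the summed level were added after seeing the data. Recovery of known changes by limma was tested on simulated data, with the size of the changes and the variation between replicates set beforehand. Because these settings were not taken from the replicates, it gives no measure of power for these samples. Names were matched to RefSeq tables of GRCm38.p6, which gave all hairpins and 23 exact mature names.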

Additional observations from a re-analysis of the deposited data

How the results depend on the processing

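Under the 21 alternatives 0 of the tested members passed the threshold. Over all miRNAs the number past it, 5 in the main test, was 8 with centring, 8 with the 100 most abundant miRNAs, 3 with quantile normalization, 3 with positive control scaling, 14 with DESeq2, 30 with the replicate number as a block and 1 to 26 when 1 sample was left out (26 without oncogenic replicate 1, 10 without oncogenic replicate 2, 3 without normal replicate 1, 1 without normal replicate 2). The median difference of the tested members, 0.07, was 0.59 with centring, 0.46 with the 100 most abundant miRNAs, 0.34 with quantile normalization, -0.33 with mRNA scaling, 0.35 with DESeq2 and -0.30 to 0.32 when 1 sample was left out. Differences of members that changed sign were, with centring, 0.32 for miR-154 and 0.26 for miR-543; with the 100 most abundant miRNAs, 0.19 for miR-154 and 0.13 for miR-543; with DESeq2, 0.0932 for miR-154 and 0.0322 for miR-543; with mRNA scaling, -0.33 for miR-136 and -0.15 for miR-376a; with positive controls, -0.18 for miR-136; with mRNA probes without Gapdh, -0.0686 for miR-136. When 1 sample was left out, miR-376a ranged from -0.0156 (without normal replicate 2) to 0.525, miR-496 from -0.43 (without oncogenic replicate 1; -0.34 without normal replicate 2) to 2.20, and miR-136 was at -0.19 without normal replicate 2. The log2 ratio of the summed level, 0.17, was 0.72 with centring, 0.59 with the 100 most abundant miRNAs, 0.30 with quantile normalization, -0.22 with mRNA scaling, -0.0796 with positive controls and 0.10 to 0.25 when 1 sample was left out. With the highest negative control probe as background, 11 members were above it in both oncogenic samples (18.6%, against 34.98% of all miRNA probes) and 16 in both normal samples (27.1%, against 41.9%). The cause of these shifts was not tested. Samples with the same replicate number deviated together from their group means (r = 0.66 over all tested miRNAs), but the labels do not say that the numbers pair them; under the block no member passed, and miR-496 had a limma adjusted p of 0.282. Members below about 30 normalized counts rest on few barcodes and lie close to background.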
